A study of Mus musculus with 6 samples.

Results

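The nuclear genes of the mitochondrial respiratory chain were followed in whole mouse hearts at embryonic day 9.5, when the heart tube is looping. They were taken by symbol from the protein-coding genes of the deposited counts, as the names of complex I (Nduf), complex II (Sdh), complex III (Uqcr and Cyc1), complex IV (Cox4 to Cox8) and complex V (Atp5) subunits, with at least 20 counts in 3 or more of the 6 libraries. Of the 30323 genes of the table, 81 met the rule: 35 of complex I, 4 of complex II, 9 of complex III, 16 of complex IV and 17 of complex V. The rule reads names only, so Atp5s, which is not a subunit of the enzyme, and Cox7a2l, a supercomplex factor, are among them. The complex I subunit Ndufab1 is not.

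The groups were 3 control libraries, whose genotype is labelled C57BL/6 ctrl, and 3 libraries of myocardial Cdc42 knockout hearts (MCKO). The labels name neither the Cre line nor the alleles, nor what else the groups share or a litter, and do not tie a library to 1 heart. Library totals were 19256840 to 34246477 estimated counts. Levels are given as CPM, estimated counts scaled to the library total, with the libraries in the order control 1, 2, 3 and MCKO 1, 2, 3. Cdc42, the targeted small GTPase gene, stood at 398.8, 377.3 and 423.7 CPM in the controls and at 247.6, 240.8 and 238.5 CPM in MCKO.

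The respiratory chain of the inner mitochondrial membrane passes electrons from NADH (complex I) and succinate (complex II) through complex III to oxygen at complex IV. The protons pumped on the way drive ATP synthase, complex V. Complexes I, III, IV and V are each built from subunits encoded in the nucleus and a few encoded in mitochondrial DNA, while complex II is encoded in the nucleus alone. The working heart relies heavily on this chain, and the early embryonic heart is known to rely more on glycolysis.

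Most of the genes were lower in MCKO, by small amounts. With edgeR's quasi-likelihood test and an adjusted p under 0.05, 47 of the 81 genes were lower (58.0%), where 29.1% of all 14697 tested genes were lower. Another 9 were higher (11.1%), where 29.3% of all tested genes were higher, and 25 were not called. In either direction 56 of 81 genes were called, where 58.4% of all tested genes were. The median log2 fold change (MCKO over control) was -0.21 over the 81 genes and 0.00057 over all tested genes. A called gene was at least 2-fold changed in 1 case, Cox4i2. All 81 passed the filter on low counts, so these counts and medians cover every member.

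In the controls the 81 genes together held 15720, 16300 and 15120 CPM. In MCKO they held 12860, 13000 and 13560 CPM, below every control, and the ratio of the group means was 0.836. With scaling to library totals only, as in CPM, the median log2 fold change was -0.27 over the 81 genes and -0.061 over all tested genes. The fall of the sum was not shared evenly. Complexes I, II, III and V were lower in every MCKO library than in any control, whereas the complex IV sums of the groups overlapped.

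**Figure D1:**
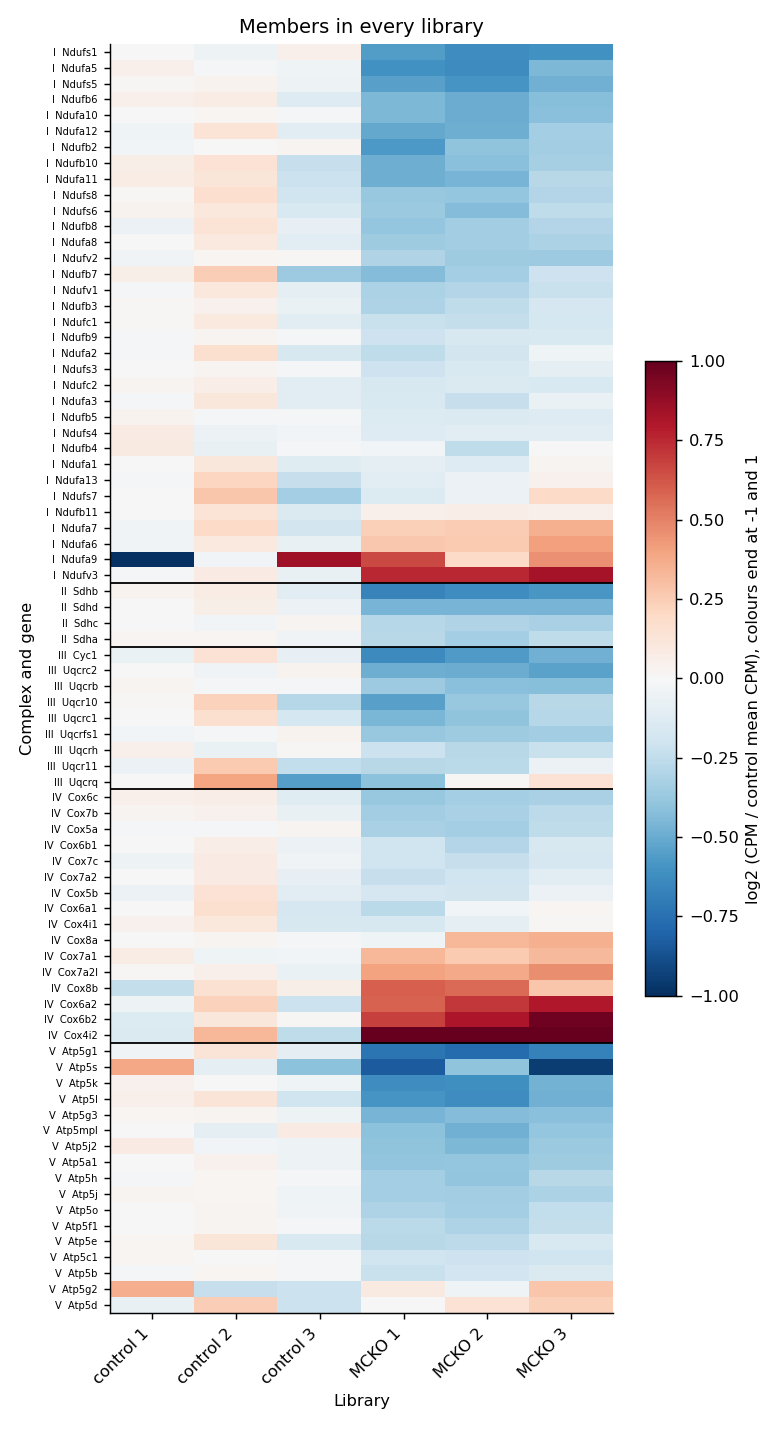
Level of 80 of the 81 genes in each library as log2 of its CPM over the mean CPM of the controls, by complex (rows, ordered by fold change) and library (columns), with blue below and red above the control mean. The MCKO columns are mostly blue in complexes I, II, III and V, and the lower rows of complex IV are red, with Cox4i2 beyond the end of the colour scale.

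Hearts were taken whole, so fewer cells of a type and less RNA per cell cannot be told apart. Cell type markers moved between the groups as well, where 29.1% of all tested genes were lower and 29.3% higher. Of 10 heart muscle markers, 5 were higher and none was lower by edgeR, and their summed share of the counts was 3.47 to 3.80% in controls and 4.14 to 4.28% in MCKO. All 10 primitive red cell markers were higher, with 0.311 to 0.341% of the counts in controls and 0.652 to 0.693% in MCKO. Of 10 endothelial and endocardial markers 8 were higher and 2 lower (0.114 to 0.116% and 0.128 to 0.131%), and of 6 tested epicardial markers 5 were lower (0.0178 to 0.0187% and 0.00707 to 0.00725%). Of 8 foregut endoderm and liver bud markers 5 were higher and 3 lower (0.00157 to 0.00182% and 0.00147 to 0.00155%). Of 3 tested macrophage markers 2 were lower (0.00133 to 0.00141% and 0.000219 to 0.000322%), with C1qa at 0 in all libraries. The part of these shifts in the results below was not tested.

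The start regions of 4 genes are shown, since genes of the chain are known to share promoter motifs. RefSeq promoter windows of 300 bases (250 before the start, 50 after, GRCm38.p6) were found for 64 of the 81 genes, 69 windows in all. Of these 69, 14.5% held the core of the NRF1 motif, GCATGCGC, against 2.71% of all 32851 windows. The ETS motif CCGGAAG, the kind bound by GABP, was in 23.2% against 8.86%, and the YY1 motif AAGATGGC in 13.0% against 2.75%. The core of the hypoxia response element, ACGTG, was in 24.6% against 19.6%. Both strands were searched, and none of these motifs contains another. The NRF1 core was in 6 of 38 windows of lower genes, 1 of 8 of higher genes and 3 of 23 of uncalled genes. In the same order, the ETS motif was in 10, 1 and 5 windows, the YY1 motif in 4, 0 and 5, and ACGTG in 7, 4 and 6. In the ACGTG count of higher genes Ndufa7 entered with both of its windows, chr17:33824322-33824621 and chr17:33824395-33824694, which overlap. Whether any motif goes with a call was not tested. A match describes the letters and does not show a bound site.

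The 4 windows are printed 5′ to 3′ on the strand of the gene, with matches to the searched motifs in capitals. Atp5k (ATP synthase subunit e; NRF1 and ETS matches), Sdhb (the iron-sulfur subunit of complex II; NRF1 and ETS matches) and Atp5g1 (a c-ring gene; ACGTG) fell. Ndufv3 (complex I; ACGTG) had the highest rise of its complex. The windows lie at chr5:108434350-108434649 (minus), chr4:140961021-140961320 (plus), chr11:96075582-96075881 (minus) and chr17:31519865-31520164 (plus).
Atp5k: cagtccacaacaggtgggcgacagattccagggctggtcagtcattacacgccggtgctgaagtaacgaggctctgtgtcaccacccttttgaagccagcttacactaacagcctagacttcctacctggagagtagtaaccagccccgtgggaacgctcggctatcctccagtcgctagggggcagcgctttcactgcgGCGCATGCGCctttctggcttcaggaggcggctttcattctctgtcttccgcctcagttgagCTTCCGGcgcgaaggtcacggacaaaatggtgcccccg
Sdhb: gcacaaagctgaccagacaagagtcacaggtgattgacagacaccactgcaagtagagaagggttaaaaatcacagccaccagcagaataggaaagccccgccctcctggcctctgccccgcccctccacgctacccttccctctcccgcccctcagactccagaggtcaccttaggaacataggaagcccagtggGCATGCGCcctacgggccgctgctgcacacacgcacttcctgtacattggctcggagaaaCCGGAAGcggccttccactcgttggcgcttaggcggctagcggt
Atp5g1: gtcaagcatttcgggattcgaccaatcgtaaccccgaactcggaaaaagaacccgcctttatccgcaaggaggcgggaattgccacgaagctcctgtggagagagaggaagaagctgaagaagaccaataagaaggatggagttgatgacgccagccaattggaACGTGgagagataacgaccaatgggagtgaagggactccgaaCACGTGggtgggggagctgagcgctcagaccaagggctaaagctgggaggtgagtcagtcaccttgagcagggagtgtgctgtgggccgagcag
Ndufv3: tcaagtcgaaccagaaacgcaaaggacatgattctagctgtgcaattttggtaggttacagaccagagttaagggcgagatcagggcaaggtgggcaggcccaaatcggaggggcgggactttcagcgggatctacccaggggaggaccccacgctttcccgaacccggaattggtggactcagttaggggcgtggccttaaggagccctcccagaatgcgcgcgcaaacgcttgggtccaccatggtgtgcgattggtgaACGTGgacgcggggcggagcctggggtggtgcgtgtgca

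Complex II, succinate dehydrogenase, links the citric acid cycle to the chain. All 4 of its genes fell in MCKO, with a median log2 fold change of -0.32. The catalytic iron-sulfur subunit gene Sdhb (chromosome 4, 140961203 to 140979193, GRCm38) stood at 190.5, 195.8 and 172.0 CPM in controls and at 116.9, 120.8 and 124.1 CPM in MCKO. Its log2 fold change of -0.56 had an SE of 0.057 and an edgeR adjusted p of 2.95e-05. Sdhd, a membrane anchor, went from 289.8, 303.2 and 279.8 CPM to 211.3, 210.6 and 210.3 CPM, a log2 fold change of -0.40 (SE 0.043, edgeR adjusted p = 3.98e-05). The groups did not overlap for either gene. The other anchor gene, Sdhc (-0.24, SE 0.037), and the flavoprotein gene Sdha (-0.23, SE 0.041) fell less, with edgeR adjusted p = 4.41e-04 and 0.00118. Within this complex, a catalytic and an anchor subunit gene thus fell more, and the other of each kind less. The 4 genes were called lower in each of the 16 alternative settings.

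Complex III, the cytochrome bc1 complex, hands electrons from ubiquinol to cytochrome c. Of its 9 genes 6 fell (66.7%), where 29.1% of all tested genes did. None rose, and the median was -0.32. Cyc1, which encodes the cytochrome c1 of the catalytic core, stood at 292.5, 338.4 and 289.7 CPM in controls and at 197.3, 206.8 and 219.8 CPM in MCKO. Its log2 fold change of -0.50 had an SE of 0.070 and an edgeR adjusted p of 2.92e-04. Uqcrfs1, the Rieske iron-sulfur protein gene and the other nuclear gene of the catalytic core, fell by 0.30 on the log2 scale. Uqcrc2, a core protein without a redox group, went from 357.6, 349.2 and 365.5 CPM to 254.4, 253.7 and 246.4 CPM (-0.45, SE 0.037, edgeR adjusted p = 8.10e-06). For these 3 genes no MCKO library reached the level of a control.

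Among the small subunit genes, Uqcrb fell by 0.34 and Uqcrh by 0.18 on the log2 scale. Uqcrh was the most abundant gene of complex III per length, at 625.7 CPM per kb of transcript in controls. The next most abundant, Uqcr10, was not called: its controls held 120.7, 140.4 and 98.3 CPM and its MCKO libraries 82.1, 92.1 and 98.7 CPM. Without control 3 it was called lower (-0.46), as it was with DESeq2, library totals, or GC and length offsets. Uqcrq varied most in this complex, with 61.6, 81.2 and 42.1 CPM in controls and 46.4, 62.2 and 68.2 CPM in MCKO, so no difference could be read from it. The median of complex III was -0.23 without control 2.

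Complex I, NADH dehydrogenase, is the largest complex, with a peripheral arm that oxidises NADH and a membrane arm that pumps protons. Of its 35 genes 18 fell (51.4%) and 3 rose (8.57%), where 29.1% and 29.3% of all tested genes did, and the median was -0.18. The nuclear genes of the catalytic core, which carry the flavin and iron-sulfur clusters or hold the quinone site, gave falls and no rise. Ndufs1, the largest core subunit gene (chromosome 1, 63143596 to 63176833, GRCm38), held 308.4, 298.5 and 319.2 CPM in controls and 210.1, 200.9 and 203.3 CPM in MCKO. At -0.53 (SE 0.040, edgeR adjusted p = 4.80e-06) it fell most in the complex.

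Ndufv2 (-0.28) and Ndufv1 (-0.22) fell less, with SEs of 0.041 to 0.058. Ndufs8 was called lower at -0.29 (SE 0.089, edgeR adjusted p = 0.0218), but not without control 1, MCKO 1 or MCKO 2. Ndufs3 was not called (-0.089, SE 0.050). Ndufs7 was not called either (0.072, SE 0.17), with controls at 67.7, 82.3 and 53.6 CPM and MCKO at 61.9, 65.2 and 77.3 CPM. Calls in the core thus ranged from Ndufs1, with the largest fall of the complex, to Ndufs3 and Ndufs7 with none.

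The accessory subunits, which surround the core and stabilise it, were counted by arm. Of 19 in the membrane arm 10 fell (52.6%) and none rose (median -0.18). Of 9 in the peripheral arm 3 fell and 3 rose (33.3% each, median -0.059), near the 29.1% and 29.3% of all tested genes. The difference between the arms was not tested. Among those that fell were Ndufa5, a peripheral arm subunit, from 64.7, 61.7 and 60.7 CPM to 41.0, 40.2 and 45.6 CPM (-0.50, SE 0.061), and Ndufs5 of the membrane arm (-0.48, SE 0.057). Ndufs5 has a processed pseudogene copy, BC002163, of 99.4% identity. With the copy's counts added the log2 fold change of Ndufs5 was -0.22 (edgeR adjusted p = 0.00772).

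The 3 complex I genes that rose were all peripheral arm accessory subunits. Ndufv3, which sits beside the flavin-carrying tip of the arm (chromosome 17, 31520115 to 31531331, GRCm38), stood at 77.8, 82.8 and 74.4 CPM in controls and at 132.4, 131.9 and 139.3 CPM in MCKO. Its log2 fold change of 0.84 had an SE of 0.053 and an edgeR adjusted p of 1.38e-06. Ndufa6 went from 50.7, 55.5 and 49.4 CPM to 62.4, 62.3 and 68.8 CPM (0.38, SE 0.064, edgeR adjusted p = 7.96e-04). Ndufa7 went from 61.0, 71.1 and 54.8 CPM to 73.6, 74.4 and 79.7 CPM (0.35, SE 0.092, edgeR adjusted p = 0.0108). For each of the 3 the groups did not overlap.

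Over both groups together, Ndufb8 and Ndufb5 had the highest levels per length in complex I. Ndufb8 fell by 0.28 on the log2 scale, and Ndufb5 was not called (-0.075, SE 0.040). Ndufa9 gave no usable value, with 3.15, 14.3 and 26.4 CPM in the controls alone.

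**Figure D2:**
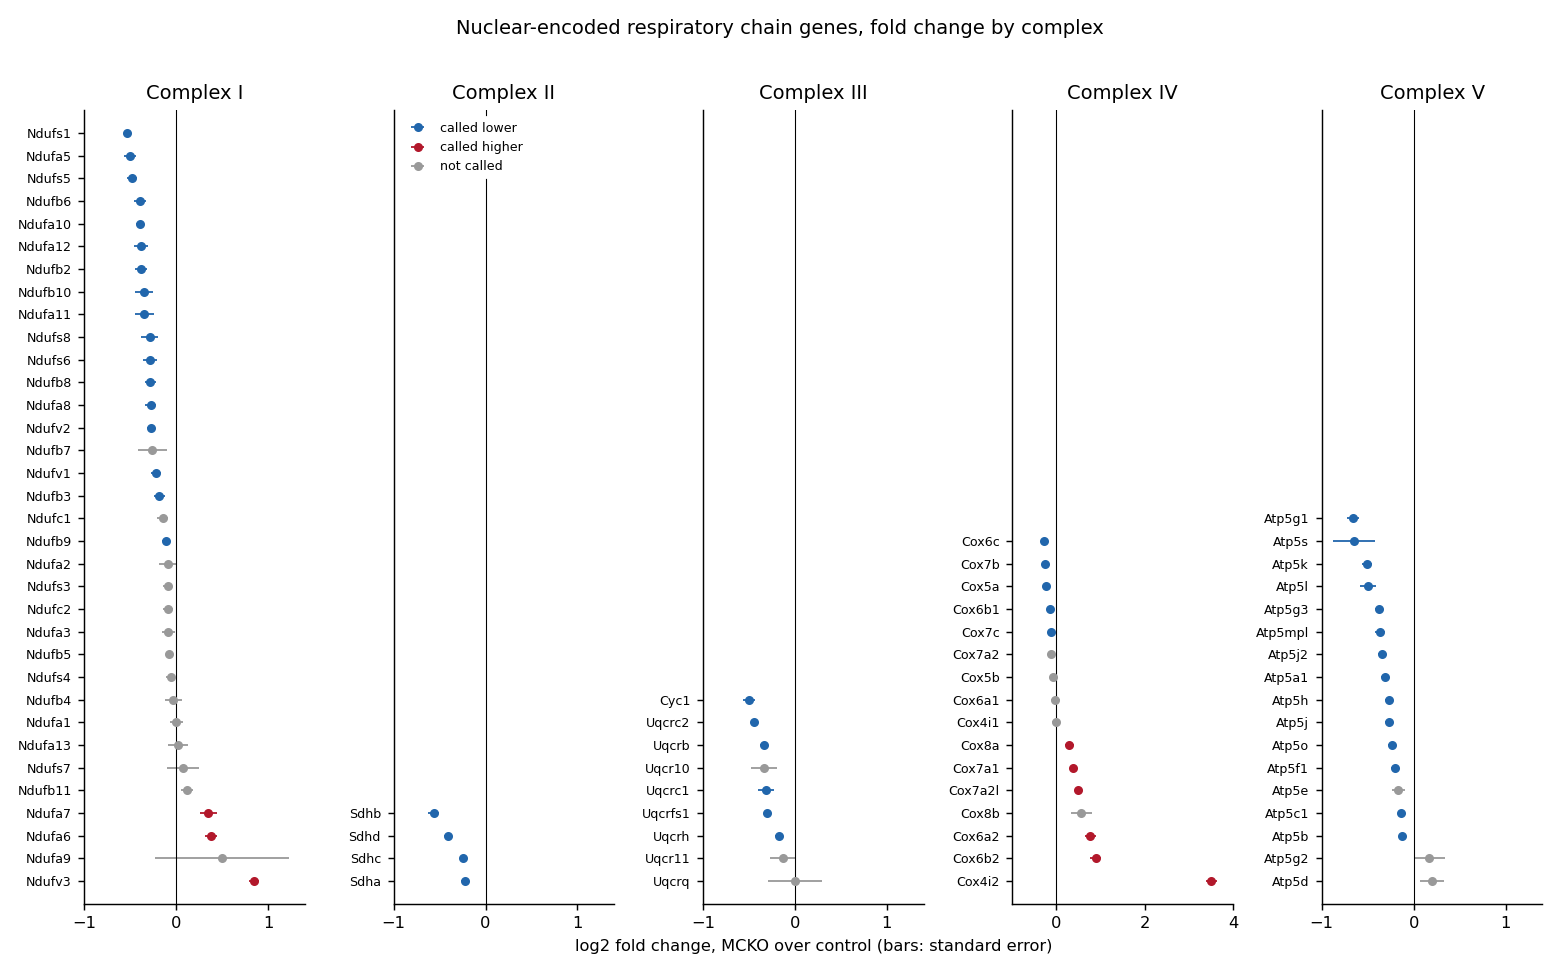
Log2 fold change (MCKO over control) of 80 of the 81 genes by complex, with bars for the standard error and colours for the edgeR call at an adjusted p under 0.05; the complex IV panel has a wider x axis. All 4 genes of complex II lie left of 0, and the points right of 0 that were called belong to complexes I and IV.

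Complex IV, cytochrome c oxidase, was described by isoform. Of its 16 genes 5 fell (31.3%) and 6 rose (37.5%), near the 29.1% and 29.3% of all tested genes, and the median was -0.020. Its summed level was 2162, 2272 and 2035 CPM in controls and 2014, 2092 and 2203 CPM in MCKO. Several of its subunits exist as a widely expressed isoform and one of restricted expression, found in lung, heart and skeletal muscle or testis. Of the 5 restricted isoforms above the threshold 4 rose and none fell. Their 5 wide partners gave 1 fall and 1 rise. The 5 subunits without a restricted isoform above the threshold gave 4 falls and no rise. Cox7b is among these, since its isoform Cox7b2 was under the threshold. Without control 2, MCKO 1 or MCKO 2 the falls in this complex numbered 3. With offsets for GC content and length there were 8 falls and 5 rises, and the wide partners then gave 4 falls and no rise. Over the 15 alternatives with an adjusted p under 0.05 the wide partners gave 0 to 4 falls, and the restricted isoforms 4 rises and no fall in each.

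Cox4i2, the isoform of subunit 4 known from lung and from the response to low oxygen, changed most of all 81 genes. It stood at 4.59, 6.39 and 4.26 CPM in controls and at 56.2, 52.6 and 53.6 CPM in MCKO. These are 10.7 times higher group means and a log2 fold change of 3.51 (SE 0.12, edgeR adjusted p = 5.30e-08). The gene is at 152754173 to 152765037 on chromosome 2 (GRCm38). Its partner Cox4i1 held 372.0, 389.2 and 323.1 CPM in controls and 323.2, 340.5 and 363.7 CPM in MCKO, with no call (-0.016, SE 0.076). Per kb of transcript, Cox4i2 was 1.41% ± 0.21 of the pair in controls and 14.0% ± 1.03 in MCKO (SD, n = 3), so that Cox4i1 was still the larger part in both groups. For this and the shares of Cox6a2, Cox7a1 and Cox6b2 below, the exact 2-sided permutation p was 0.1, the smallest that 3 against 3 libraries can give.

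The muscle isoform Cox6a2 rose from 51.1, 62.3 and 45.6 CPM to 79.6, 86.3 and 92.4 CPM (0.77, SE 0.12, edgeR adjusted p = 0.00102). Its partner Cox6a1 was not called (-0.023, SE 0.10). The share of Cox6a2 in the pair per length was 24.3% ± 0.92 in controls and 35.8% ± 0.98 in MCKO (SD, n = 3). Cox7a1, the muscle isoform of subunit 7a, rose from 24.0, 22.1 and 22.4 CPM to 28.7, 27.4 and 28.6 CPM (0.37, SE 0.059, edgeR adjusted p = 5.28e-04), and its share went from 18.5% ± 1.18 to 24.1% ± 0.86. Its partner Cox7a2 was not called (-0.12, SE 0.056), but was called lower without control 3 (-0.16), with library totals (-0.18), and with GC and length offsets.

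Cox6b2, known from testis, was scarce, at 3.59, 4.26 and 3.98 CPM in controls and 6.34, 6.92 and 7.75 CPM in MCKO. It rose by 0.89 on the log2 scale (SE 0.12, edgeR adjusted p = 2.28e-04), while its partner Cox6b1, the most abundant complex IV gene per length, was called lower at -0.16. That call of Cox6b1 (edgeR adjusted p = 0.0259) was lost without control 1, control 2, MCKO 1 or MCKO 2. The share of Cox6b2 was 1.51% ± 0.11 in controls and 3.08% ± 0.27 in MCKO.

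In the last pair, Cox8b, a muscle isoform, lay just inside the count threshold. Its counts were 15, 14 and 22 in controls and 34, 25 and 19 in MCKO. As CPM these were 0.556, 0.727 and 0.684 against 0.993, 0.972 and 0.796, and the groups did not overlap. Cox8b was not called, with a log2 fold change of 0.56 (SE 0.24, edgeR adjusted p = 0.0671). Its wide partner Cox8a was called higher at 0.29 (SE 0.10, edgeR adjusted p = 0.0449), but the groups overlapped: 166.9, 170.6 and 165.6 CPM against 162.9, 210.6 and 215.0 CPM. The call was lost on leaving out any library except MCKO 1, with an adjusted p of 2.25e-04 to 0.210 over the alternatives.

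**Figure D3:**
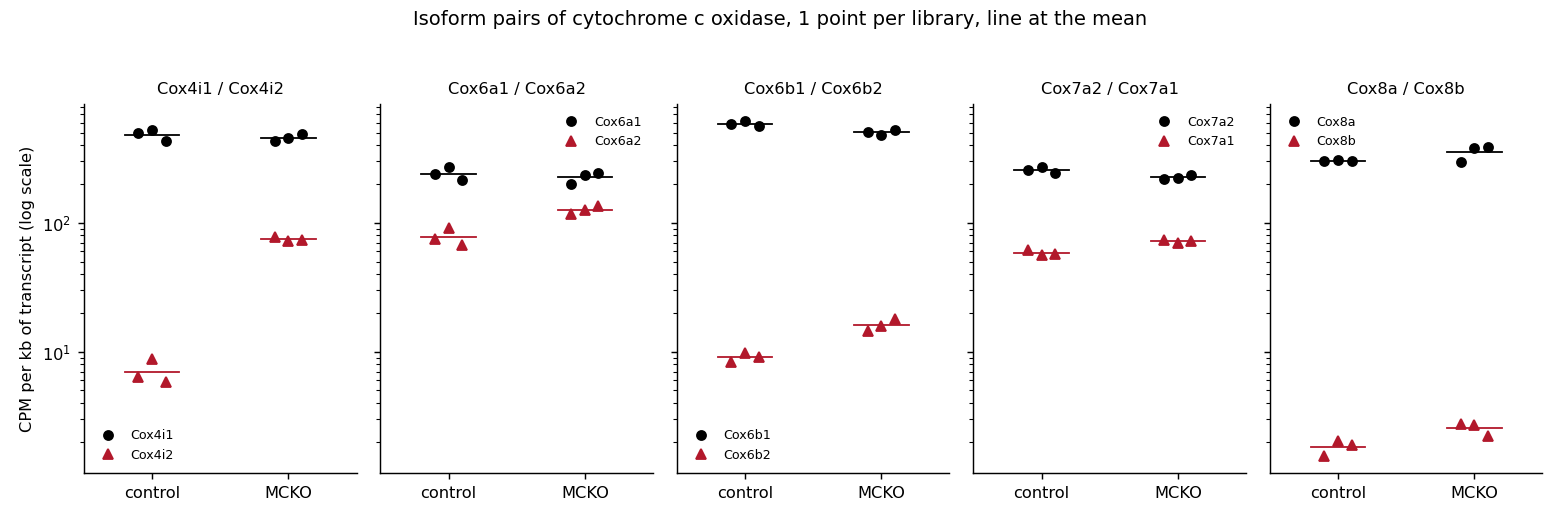
Level per kb of transcript (log axis) of the 5 isoform pairs of complex IV with both genes above the count threshold. There is 1 point per library and a line at the group mean. Black circles are the widely expressed isoform and red triangles the restricted one. The red points rise from control to MCKO in all 5 panels, though Cox8b in the last was not called. The black points stay above them in every library.

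Of the subunits without a restricted isoform above the threshold, Cox6c fell by 0.29, Cox7b by 0.25 and Cox5a by 0.24 on the log2 scale. Their SEs were 0.041 to 0.056. Cox5a, which binds the matrix side of the enzyme, held 206.3, 204.6 and 211.8 CPM in controls and 166.0, 164.4 and 174.2 CPM in MCKO. Cox7a2l, which helps join complexes III and IV into supercomplexes, rose from 156.8, 160.7 and 148.4 CPM to 205.3, 202.0 and 214.0 CPM (0.48, SE 0.047, edgeR adjusted p = 2.57e-05). A processed pseudogene of 97.9% identity, Gm6969, held 321, 222 and 439 counts in controls and 2, 1 and 0 in MCKO. With these counts added, Cox7a2l rose by 0.37.

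Complex V, ATP synthase, held the most abundant genes of the chain, with 7742, 7933 and 7524 CPM in controls and 6199, 6240 and 6479 CPM in MCKO. Of its 17 genes 14 fell (82.4%), where 29.1% of all tested genes did. None rose, and the median was -0.27. Without Atp5s, 13 of 16 fell, and on leaving out control 1 (Atp5g2) or control 2 (Atp5d) 1 gene was called higher. Both catalytic head genes fell: Atp5a1, the alpha subunit, by 0.32 (SE 0.040, edgeR adjusted p = 1.30e-04) and Atp5b, the beta subunit, by 0.13 (SE 0.039, edgeR adjusted p = 0.0199). Atp5b was the most abundant gene of the chain, at 2452, 2502 and 2450 CPM in controls and 2111, 2157 and 2235 CPM in MCKO. Its call was lost without MCKO 1 or MCKO 2.

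The 3 c-ring genes encode the same mature protein behind different import sequences. Atp5g1 (chromosome 11, 96068852 to 96075670, GRCm38) fell most of the 81 genes, from 233.4, 262.3 and 223.7 CPM to 144.3, 140.9 and 150.5 CPM. Its log2 fold change of -0.66 had an SE of 0.064 and an edgeR adjusted p of 2.24e-05. Atp5g3, the main c-ring gene, went from 602.1, 606.9 and 573.8 CPM to 430.4, 438.9 and 445.1 CPM (-0.38, SE 0.041, edgeR adjusted p = 4.37e-05). The groups did not overlap for either. Atp5g2 held 15.6, 10.3 and 10.4 CPM in controls and 12.9, 11.8 and 14.7 CPM in MCKO and was not called, except as higher without control 1 (0.39). A transcribed processed pseudogene identical to it over the aligned length, Gm10175, held 3986 to 7555 counts, and with these added Atp5g2 was called higher at 0.24 (edgeR adjusted p = 0.00124).

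Per length, Atp5g3 made 69.0% ± 1.03 of the c-ring level in controls and 71.9% ± 0.74 in MCKO, and Atp5g1 made 28.7% ± 1.37 and 24.6% ± 0.43 (SD, n = 3). With the Gm10175 counts added to Atp5g2, the direction of Atp5g3 turned, from 50.1% ± 0.71 in controls to 44.8% ± 0.54 in MCKO. Atp5g1 then made 20.9% ± 1.01 and 15.4% ± 0.29, and Atp5g2 29.0% ± 0.39 and 39.8% ± 0.43. How the reads divide between Atp5g2 and its copy therefore sets the share of Atp5g3. The 4 genes of the peripheral stalk all fell, by a like amount (-0.21 to -0.27). The 4 small membrane subunit genes also all fell, with a median of -0.43. Among them, Atp5k, whose product takes part in the pairing of ATP synthases, went from 109.1, 106.0 and 103.1 CPM to 69.0, 69.2 and 76.5 CPM (-0.51, SE 0.054, edgeR adjusted p = 4.32e-05). Atp5s was scarce, at 5.71, 4.10 and 3.30 CPM against 2.45, 3.31 and 2.26 CPM. It was called lower at -0.65 (edgeR adjusted p = 0.0355) although its groups overlapped, and the call was lost without control 1, control 2, MCKO 1 or MCKO 3, with -0.40 as the value closest to 0.

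Of the 13 subunits encoded in mitochondrial DNA 11 were lower by edgeR (84.6%), where 29.1% of all tested genes were, and none was higher. The median log2 fold change was -1.24, beside -0.21 for the nuclear genes. The sum of the 13 was 31300, 32370 and 35500 CPM in controls and 13790, 13190 and 13120 CPM in MCKO. The ratio of the mitochondrially encoded sum to the nuclear sum was 2.11 ± 0.21 in controls and 1.02 ± 0.052 in MCKO (SD, n = 3; exact 2-sided permutation p = 0.1, the smallest that 3 against 3 libraries can give). It was lower in MCKO in each complex with both kinds of gene: 3.75 ± 0.53 and 1.59 ± 0.13 in complex I, 2.51 ± 0.25 and 1.11 ± 0.058 in complex III, 6.59 ± 0.64 and 3.16 ± 0.21 in complex IV, and 0.434 ± 0.042 and 0.189 ± 0.011 in complex V. No MCKO library reached the ratio of a control in any of them.

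The complex III gene mt-Cytb went from 4095, 3994 and 4407 CPM to 1438, 1412 and 1377 CPM, a log2 fold change of -1.50 (SE 0.044, edgeR adjusted p = 1.20e-08). In complex I, mt-Nd1 fell by 1.88 on the log2 scale, in complex IV mt-Co1 by 1.25 and in complex V mt-Atp6 by 1.46. The 2 that were not called varied within a group. Of these, mt-Nd3 held 48.0, 61.8 and 204.6 CPM in controls and 55.1, 57.4 and 39.7 CPM in MCKO (-0.99, SE 0.67). The other, mt-Co2, showed no fall, with 661.4, 1178 and 1115 CPM against 1023, 748.0 and 1086 CPM (0.014, SE 0.29). The libraries were made with an mRNA kit per the labels, and how well it takes up mitochondrial transcripts was not tested.

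**Figure D4:**
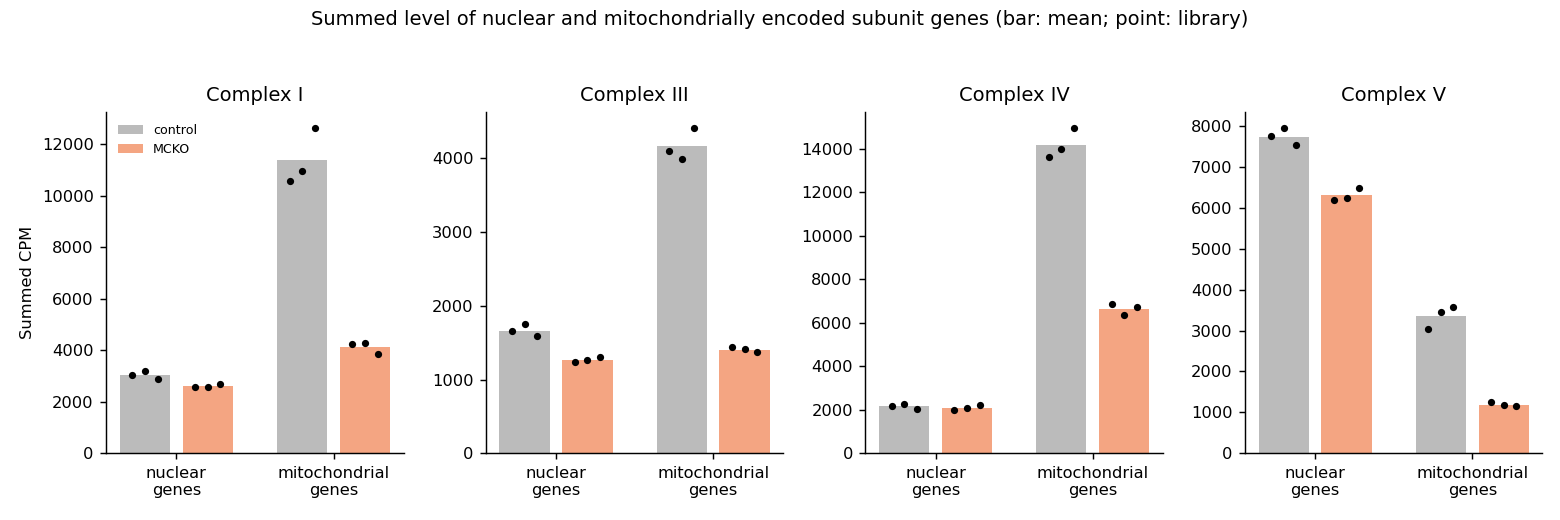
Summed CPM of the nuclear and of the mitochondrially encoded subunit genes of complexes I, III, IV and V, with bars for the group mean and points for the 3 libraries (the y axes differ between panels). The mitochondrially encoded sums of MCKO lie far below those of the controls in all 4 panels, and the nuclear sums overlap in complex IV.

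Assembly factors, which insert cofactors and join subunits without being part of the final enzyme, mostly moved down. The share called lower was 62.5% for complex I, 50% for II, 33% for III, 55% for IV and 80% for V. Of all tested genes 29.1% were lower, which is near the complex III share. Of 16 for complex I, 10 were lower and 1 was higher (Nubpl, which delivers iron-sulfur clusters, at 0.27), with a median of -0.29. Ndufaf2 went from 13.7, 13.4 and 13.3 CPM to 5.93, 6.26 and 5.74 CPM (-1.11, SE 0.083, edgeR adjusted p = 4.26e-06), and Ndufaf4 from 54.1, 53.9 and 58.8 CPM to 29.8, 25.9 and 25.9 CPM (-0.97, SE 0.068, edgeR adjusted p = 2.93e-06). Ndufaf6 (-0.85) and Ndufaf5 (-0.78) fell as well. Each of these factors thus had a larger fold change than Ndufs1, the complex I subunit gene that fell most.

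Of 4 complex II factors 2 were lower, Sdhaf1 (-0.70) and Sdhaf2 (-0.30), the factors for the iron-sulfur and flavin subunits. Of 6 complex III factors 2 were lower, Uqcc1 (-0.27) and Bcs1l (-0.29), which puts the Rieske protein in place. With library totals in place of TMM 4 were lower, and 3 were lower without control 2, without control 3, or with GC and length offsets. Of 22 tested complex IV factors 12 were lower and 2 higher. Cox18, which moves part of the second core subunit across the membrane, went from 13.9, 15.0 and 15.7 CPM to 6.95, 7.04 and 6.36 CPM (-1.07, SE 0.087, edgeR adjusted p = 7.46e-06). Cmc2 (-0.70), the copper chaperone Sco1 (-0.69) and Taco1 (-0.61), a translational activator of mt-Co1, also fell. The 2 that rose were Cox17 (0.30) and Surf1 (0.21). Those rises numbered 4 without control 2, 1 without MCKO 2 or MCKO 3, and 0 with library totals in place of TMM. Of 5 complex V factors 4 were lower, Tmem242 (-0.58), Atpaf1 (-0.53), Tmem70 (-0.47) and Atpaf2 (-0.14). The call of Atpaf2 (edgeR adjusted p = 0.0475) was lost without control 1 or any 1 MCKO library, and with DESeq2 or other filters on low counts.

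Of 17 tested genes of electron carriers and supercomplex factors 12 were lower (70.6%) and 2 higher (11.8%), with a median of -0.30. Of all tested genes 29.1% were lower and 29.3% higher. Cycs, the cytochrome c gene, stood at 139.9, 156.9 and 172.3 CPM in controls and at 81.2, 77.1 and 82.1 CPM in MCKO (-0.90, SE 0.072, edgeR adjusted p = 8.04e-06). Pdss1 (-0.69) and Coq5 (-0.36) of ubiquinone synthesis and Etfb (-0.38) of the electron transfer flavoprotein fell. The 2 that rose were Higd1a (1.06), a hypoxia-inducible gene, and Coq8a (0.85), a factor of ubiquinone synthesis.

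Genes that control mitochondrial gene expression and biogenesis gave 7 of 20 lower (35%), 6 higher (30%) and a median of -0.041, shares near the 29.1% and 29.3% of all tested genes. The coactivator gene Pprc1 went from 117.6, 122.6 and 116.4 CPM to 82.6, 84.7 and 86.0 CPM (-0.43, SE 0.044, edgeR adjusted p = 3.01e-05). Its relative Ppargc1b rose from 16.7, 16.6 and 14.6 CPM to 23.4, 24.7 and 23.8 CPM (0.65, SE 0.072, edgeR adjusted p = 4.99e-05). Polg2, of the mitochondrial DNA polymerase, rose (0.71), and the nuclear receptor gene Esrrb fell (-0.61). Without MCKO 1 the genes of this list that were lower numbered 4, and without MCKO 2 they numbered 3.

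A list of 8 hypoxia-linked genes that act on the chain gave 7 rises and 1 fall, Hif1a (-0.92). It was chosen with results of these libraries known, so its direction is not independent evidence. Bnip3, a mitophagy receptor, went from 152.3, 153.8 and 166.6 CPM to 944.4, 915.3 and 891.6 CPM (2.60, SE 0.047, edgeR adjusted p = 1.09e-09). Egln3, an oxygen-sensing hydroxylase, rose by 3.78, Mxi1, a Myc antagonist, by 1.97 and Pdk1, which restrains pyruvate entry into mitochondria, by 1.43 on the log2 scale. Chosen after their values were seen, Ndufa4l2, a relative of Ndufa4 that the naming rule leaves out, rose by 6.05, and Lonp1, the matrix protease known to degrade the Cox4i1 protein, by 1.15.

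**Figure D5:**
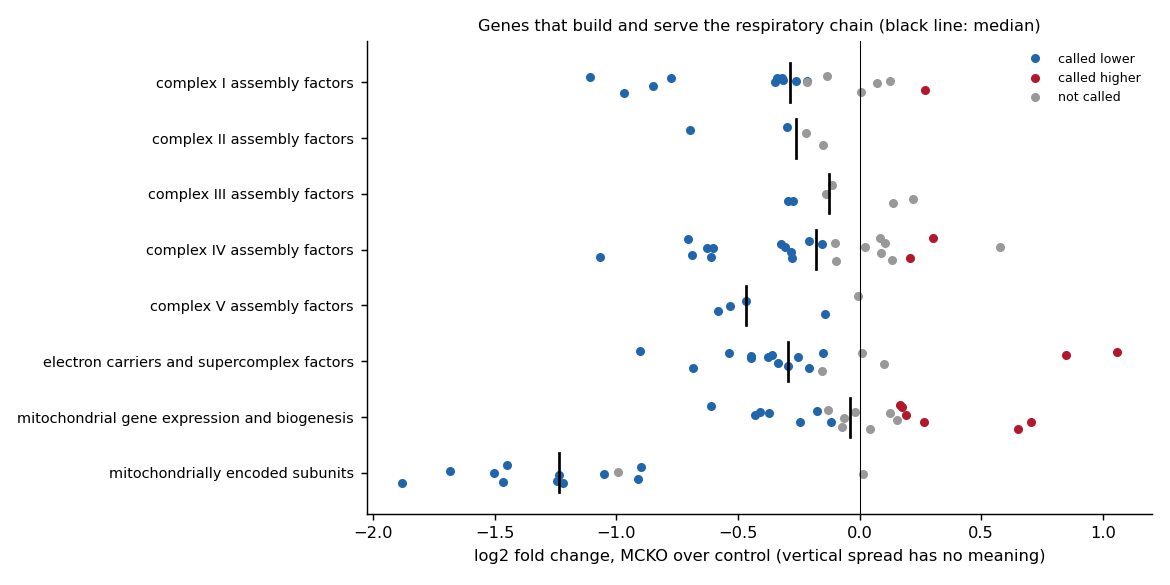
Log2 fold change (MCKO over control) of each tested gene of 8 lists around the chain, 1 point per gene, coloured by the edgeR call at an adjusted p under 0.05, with a black line at the list median. The medians of the assembly factor lists lie between -0.13 and -0.47, and that of the mitochondrially encoded subunits at -1.24.

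Within a group the genes of the chain tended to deviate together. Control 2 was the highest control for 59 of the 81 genes and control 3 the lowest for 62, and MCKO 3 was the highest MCKO library for 65. Control 2 and MCKO 3 had the lowest totals of their groups. The median coefficient of variation over the 81 genes was 6.20% in controls and 3.86% in MCKO. Across the 81 genes, which share these 6 libraries and are not independent, the fold change had a Spearman correlation of 0.21 with the GC content of the transcript, -0.15 with its length and -0.19 with its level per length. Over 14600 tested genes the correlation was 0.13 with GC content and -0.012 with length. Of 28 genes with a GC content of at least 55% 13 were lower and 3 higher, and of the other 53 genes 34 were lower and 6 higher.

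The threshold left out 3 protein-coding genes whose names match. Ndufa4, now counted with complex IV, had 0, 4 and 0 counts in controls and 5, 12 and 4 in MCKO. These counts may depend on the transcript set used for the estimates, which is not given. This was not tested, so they do not show that the gene is silent. Cox7b2 had 0, 0 and 2 and then 1 in each MCKO library, and Cox8c had no count in any library, where a count of 0 allows up to 0.156 CPM in the shallowest library. The other 10 matching names were not protein-coding. Ndufb4, with 11.2 to 14.3 CPM, has a processed pseudogene of identical aligned sequence, Ndufb4c, with 808 to 1124 counts, and was not called with or without it.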

How the data were processed

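RNA from whole hearts of 3 control and 3 MCKO samples was measured with a stranded mRNA kit, per the labels' protocols. The authors deposited estimated counts per gene as whole numbers, and kallisto and the build mm10 are named, with no version or role, in the submitters' processing notes. Neither the transcript set nor how values were rounded is given in the sources used here. Estimated counts divide reads between near-identical copies, which were found with minimap2 2.31 (at least 95% identity over 80% of the shorter transcript) among GENCODE M21 transcripts.

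On the deposited estimated counts, MCKO was compared with control in edgeR 4.0.16 (R 4.3.3), with filterByExpr, TMM scaling, a robust quasi-likelihood model holding only the group, 2-sided p-values and Benjamini-Hochberg adjustment over the 14697 genes left. Before use the fit was tested on simulated data. Few genes were changed there, in either direction, where 58.4% of tested genes were called here. That check therefore does not cover the scaling when many genes change. Fold changes are log2, MCKO over control. CPM per kb divides by the length of the basic coding transcript of median length. Counting floors use 3 counts and cover counting error only.

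Named were all of complex II, and in each other complex the 3 called genes with the most negative and the 3 with the most positive fold change, the 2 highest per length, the complex I core, isoform pairs, genes nearest the threshold, and up to 4 called genes of each list by smallest p; any other named gene was chosen after its values were seen. Of these, 1 gene is counted but not reported here by itself. The members and lists were chosen with earlier results of these data known. Nothing ties samples to animals or litters, so p-values measure no more than the spread of these samples, which may be technical. The 16 alternatives that gave values covered scaling, low-count filters, DESeq2 1.42.0, left-out libraries, a replicate block, copies, mitochondrial genes, GC content and length, and an adjusted p under 0.01.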

Additional observations from a re-analysis of the deposited data

How the results depend on the processing

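Over the 16 alternatives the genes called lower numbered 37 to 56 (37 to 53 when leaving out 1 library, 37 at an adjusted p under 0.01) and those called higher 7 to 10 (8 to 10 when leaving out 1 library); 36 of the 47 lower and 8 of the 9 higher calls were kept in all 15 of them that used an adjusted p under 0.05. The median of complex II was -0.38 and that of complex V -0.33 with library totals in place of TMM, which moved the median of all genes to -0.061. That scaling gave 42.6% of all calls as higher, where TMM gave 50.2%. The complex IV median was -0.11 with offsets for GC content and length. Leaving out 1 library gave medians of -0.22 to -0.12 for complex I, -0.34 to -0.31 for complex II, -0.35 to -0.23 for complex III, -0.099 to 0.051 for complex IV, and -0.30 to -0.26 for complex V; complex IV turned positive without control 2 (0.051) or MCKO 1 (0.045). No called gene of the 81 changed sign in the alternatives, and 9 uncalled ones did, with values near 0: Cox4i1, Cox5b, Cox6a1, Ndufa1, Ndufa13, Ndufb4, Ndufs7, Uqcr11 and Uqcrq. On leaving out 1 library Cox4i1 ranged from -0.093 to 0.041 (positive without control 1, control 2 or MCKO 1), Cox6a1 from -0.10 to 0.063 (positive without control 2 or MCKO 1), and Ndufs7 from -0.077 to 0.23 (negative without control 3 or MCKO 3). Ndufs7 was also negative with GC and length offsets (-0.080). For these changes the cause was not tested. With the replicate block 42 genes were lower and 9 higher, and the calls of Ndufb3, Ndufb9, Cox6b1, Cox7c and Atp5b were lost. Same-numbered samples had deviations that correlated at 0.003, 0.021 and -0.116, so the numbers were not taken to pair the samples. Counting Ndufa4 in complex I was not run, since that gene is under the count threshold. Cox8b, with 14 to 34 counts in a library, is limited by depth.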
